A study of Mus musculus with 8 samples.

Results

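Chemokines are small secreted proteins that direct the movement of leukocytes and of some other cells along their gradients, and they act on receptors that couple to G proteins. In the gut wall they are known for placing eosinophils, macrophages and lymphocytes, and for the assembly of Peyer's patches. Atypical receptors bind chemokines and remove them without G protein signalling. The genes described here are the protein-coding loci whose names begin with Ccl, Cxcl, Ccr, Cxcr, Xcl, Xcr or Ackr and a digit, or with Cx3c: 61 of the 46635 loci listed, of which 60 are reported. The 60 comprise 38 ligands, 18 receptors and 4 atypical receptors.

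The study compared wild-type mouse small intestinal mesenchyme at P14 (postnatal day 14, 4 libraries) and at E17.5 (late gestation, 4 libraries), with neither treatment nor engineered allele at either age. Its stated subject is the lengthening of the gut. EDTA had been used to strip the epithelium, and total RNA of the remaining wall was sequenced in bulk, so the RNA is that of stroma, muscle, vessels, nerves and blood-derived cells together. The labels do not say whether a replicate is 1 animal or a pool, and the p-values therefore measure the spread between these samples only, which may be technical.

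The tissue label was checked against marker genes. Col3a1, a fibroblast collagen, averaged 736 ± 278 FPKM at P14 and 713 ± 44.2 FPKM at E17.5 (SD, n = 4 each), where FPKM is reads scaled by the gene's length and by the authors' library size. Epithelial transcripts were nevertheless present at P14: 16 epithelial markers summed to 5342, 133, 747 and 264 FPKM in P14 replicates 1 to 4, against 34.3 to 56.0 FPKM at E17.5. P14 replicate 1 stood apart from the rest, with correlations of 0.780 to 0.873 with the other P14 libraries, which correlated at 0.956 to 0.974 among themselves. P14 replicate 2 had the least B and plasma cell RNA of its age, 18.7 FPKM over 12 markers against 76.5 to 140 FPKM in the other P14 libraries and 6.45 to 8.13 FPKM at E17.5. Calls that turn on either library are given with and without it. Reads assigned to genes numbered 17702122 to 18474346 per P14 library and 16660998 to 19496632 per E17.5 library.

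Chemokine families are named for the spacing of the cysteines near the start of the mature protein. The stretches below are the reference coding sequence around those cysteines for ligands on which the results turn, read from the GENCODE M21 annotation of GRCm38, on the coding strand and 60 coding bases each. Capitals mark the cysteine codons, which are adjacent in the CC ligands Ccl11, Ccl24 and Ccl25, parted by 1 codon in the CXC ligands Cxcl14, Cxcl16 and Cxcl13, and parted by 3 codons in Cx3cl1. The Ccl11 stretch lies at chr11:82061681-82061740 on the plus strand and the Ccl24 stretch at chr5:135572626-135572685 on the minus strand. The Ccl25 stretch spans an intron at chr8:4349894-4353941 on the plus strand, and the Cxcl14 stretch spans an intron at chr13:56295879-56296116 on the minus strand. The Cxcl16 stretch lies at chr11:70459091-70459150 on the minus strand, the Cxcl13 stretch at chr5:95958649-95958708 on the plus strand and the Cx3cl1 stretch at chr8:94778036-94778095 on the plus strand.
Ccl11: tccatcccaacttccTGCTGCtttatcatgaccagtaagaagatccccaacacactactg
Ccl24: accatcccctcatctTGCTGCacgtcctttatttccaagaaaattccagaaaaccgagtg
Ccl25: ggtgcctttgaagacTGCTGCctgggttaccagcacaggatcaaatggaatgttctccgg
Cxcl14: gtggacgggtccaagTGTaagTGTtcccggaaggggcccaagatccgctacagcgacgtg
Cxcl16: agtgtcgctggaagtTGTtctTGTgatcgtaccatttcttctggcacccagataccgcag
Cxcl13: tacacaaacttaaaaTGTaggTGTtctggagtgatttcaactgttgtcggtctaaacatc
Cx3cl1: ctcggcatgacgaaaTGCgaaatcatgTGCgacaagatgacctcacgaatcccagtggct

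At P14 the eotaxin genes Ccl11 and Ccl24, the macrophage and monocyte receptor genes Cx3cr1, Ccr1 and Ccr2, the scavenger receptor gene Ackr2 and the ligand gene Cxcl16 were lower than at E17.5, and Cxcl14 and Ccl25 were higher. Of the 60 genes, 26 reached an FPKM of 1 in 4 or more libraries and entered the test: 17 ligands, 6 receptors and 3 atypical receptors. A gene was called where the adjusted p was under 0.05 in limma (log2 of FPKM + 1, Benjamini-Hochberg over all 14044 tested genes). By that test 2 of the 26 rose, where 9.72% of all tested genes rose, and 7 fell, where 15.0% of all tested genes fell. The remaining 17 were not called. The median log2 fold change of the 26 was -0.11, beside 0.0022 for all tested genes. Ccl25 passed the filter through its P14 values alone, and Ccr2 through its E17.5 values alone, so their being tested was tied to their direction.

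Without P14 replicate 1 the same 9 genes were called in the same direction, Ackr4 joined those that rose and Ackr3 those that fell. That made 3 that rose, where the share of all tested genes was 22.6%, and 8 that fell, where it was 26.9%. In FPKM the ages did not overlap in 4 genes that were higher at P14, where 15.6% of all tested genes did so, and in 8 that were lower at P14, where the share was 20.4%. In bulk RNA, fewer cells of a type and less RNA per cell cannot be told apart, and this holds for each leukocyte receptor below.

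**Figure D1:**
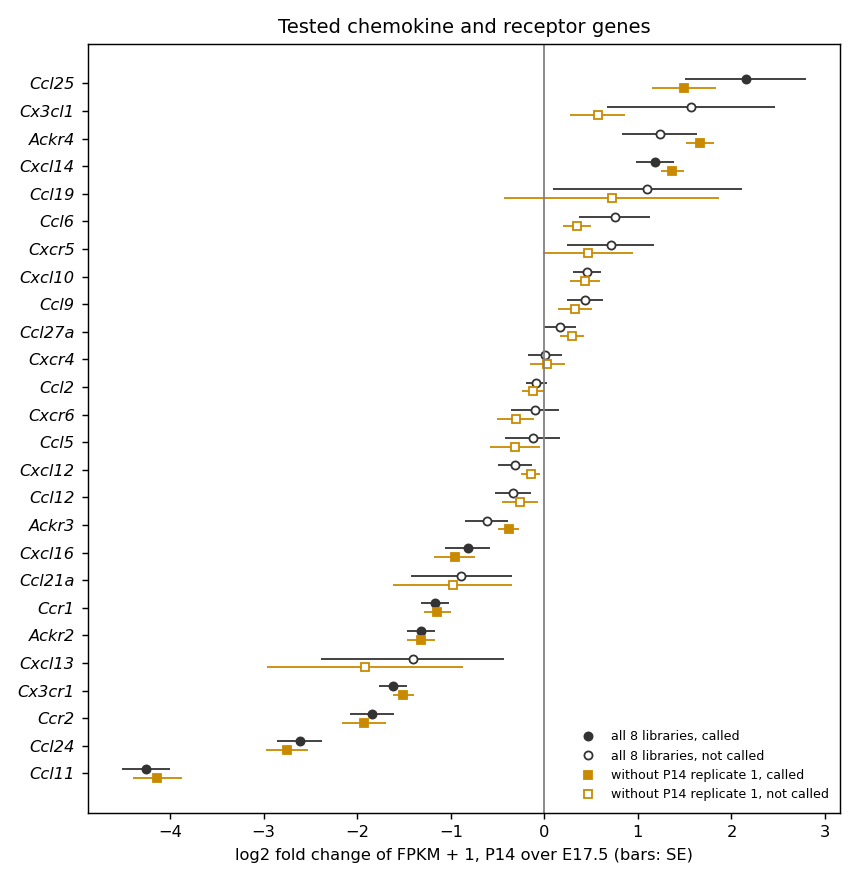
Log2 fold change (P14 over E17.5, FPKM + 1, horizontal axis) of each of the 26 tested genes in limma, with all 8 libraries (circles) and without P14 replicate 1 (squares). Filled symbols are called genes and bars are the SE. Ccl11 lies lowest at -4.26, and Ccl25, Cx3cl1 and Ackr4 are the genes at the top whose values shift most without that library.

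The largest fall among the 26 was in Ccl11, which encodes eotaxin-1, an attractant of eosinophils through Ccr3. Ccl11 (NCBI gene 20292, GRCm39 chromosome 11, 81948658 to 81953781, plus strand) had 4.98, 5.16, 12.8 and 5.99 FPKM in the P14 libraries, against 153, 142, 148 and 146 FPKM in the E17.5 libraries. The ages were far apart, the E17.5 libraries lay within a narrow band, and P14 replicate 3 was the highest of its age. The E17.5 mean was 20.3 times the P14 mean, and the log2 fold change was -4.26 (SE 0.258, limma adjusted p = 0.000263). Behind these values stood 557 reads at P14 and 11907 at E17.5. Ccl11 made up 3.68 ± 1.92% of the summed FPKM of all 38 ligands at P14 and 38.5 ± 1.87% at E17.5 (SD, n = 4 each), so that the most abundant chemokine transcript of the fetal wall was a minor one at P14.

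Ccl24, which encodes eotaxin-2, another Ccr3 ligand, fell with it. Ccl24 (NCBI gene 56221, GRCm39 chromosome 5, 135598789 to 135601977, minus strand) had 2.96, 3.04, 1.17 and 1.26 FPKM at P14, against 14.8, 20.5, 16.8 and 17.2 FPKM at E17.5. No P14 library came near the E17.5 range. Its log2 fold change was -2.61 (SE 0.241, limma adjusted p = 0.000709), an E17.5 mean 8.22 times the P14 mean. The third eotaxin gene listed, Ccl26, was at 0 in every library. Transcripts of the shared receptor Ccr3 were nearly absent at both ages, with 2 reads over the P14 libraries and 17 over the E17.5 libraries.

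Eosinophil transcripts were scarce. The 9 eosinophil markers summed to 0.682 to 2.06 FPKM at P14 and 2.28 to 3.07 FPKM at E17.5, and Ear1 and Ear6 were at 0 in all libraries. Epx, the eosinophil peroxidase gene, was at 0 in every E17.5 library and in all P14 libraries but replicate 1. Siglecf, an eosinophil surface lectin that other myeloid cells can carry, was the only called gene of the 2 tested on that list (P14 0.215 ± 0.0526 FPKM, E17.5 1.30 ± 0.205 FPKM, SD, n = 4 each) and fell by 0.92 on the log2 scale (limma adjusted p = 0.00113), having passed the filter through its E17.5 values alone. Mast cell transcripts moved the same way: 10 markers summed to 1.06 to 2.91 FPKM at P14 and 12.0 to 25.2 FPKM at E17.5. Of 7 tested type 2 cytokine genes of 14 listed (median log2 fold change -0.05), Il33 and Tslp, which encode alarmins of barrier tissues, fell by 1.14 and 0.83 on the log2 scale, and Il4ra, an interleukin-4 receptor gene, rose by 0.83 (limma adjusted p = 0.0111, 0.00236 and 0.0497). Tslp too was tested through its E17.5 values alone, and of all tested genes 15.0% fell and 9.72% rose. Any part of these cells in the fall of the eotaxin genes was not tested.

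**Figure D2:**
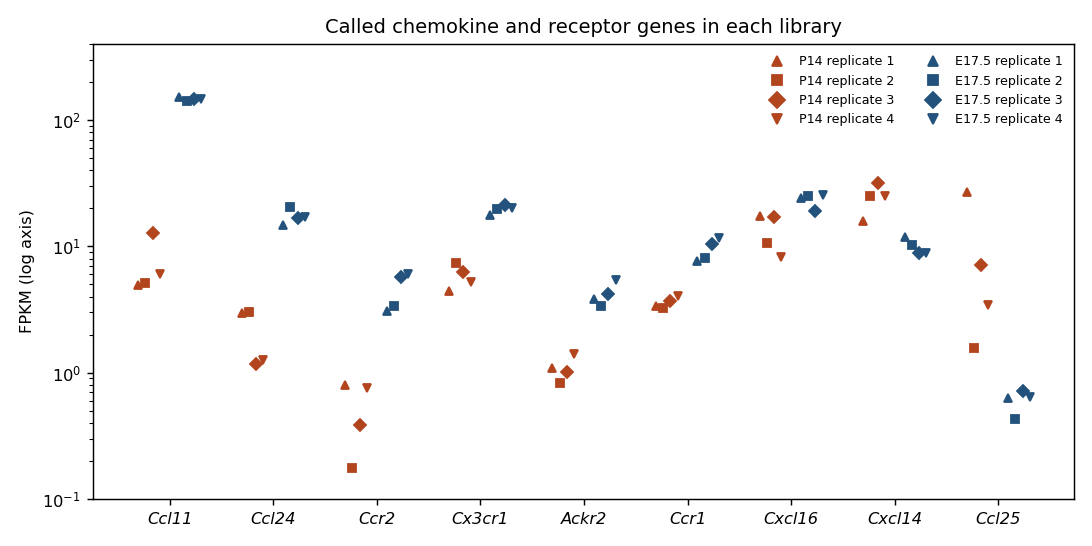
FPKM (log axis) of the 9 called genes in each library, with P14 in red on the left of each pair and E17.5 in blue on the right, and replicate numbers by symbol shape. The ages are apart in all 9 genes, by the widest margin in Ccl11 (4.98 to 12.8 FPKM at P14, 142 to 153 FPKM at E17.5) and by the narrowest in Cxcl16.

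Cxcl16, a membrane-bound CXC ligand of Cxcr6, was lower at P14 by a small margin. Cxcl16 (NCBI gene 66102, GRCm39 chromosome 11, 70345215 to 70350810, minus strand) had 17.4, 10.6, 17.1 and 8.16 FPKM at P14, against 23.9, 25.0, 19.0 and 25.3 FPKM at E17.5. The highest P14 library and the lowest E17.5 library lay close together. The log2 fold change was -0.82 (SE 0.241, limma adjusted p = 0.0413), and the call was lost without any single E17.5 library (adjusted p 0.0682 to 0.106), without P14 replicate 2 (0.0886) and without P14 replicate 4 (0.0723). The call was also lost when every gene above 0 was tested (limma adjusted p = 0.0852). Its receptor gene Cxcr6, found on resident T and innate lymphoid cells, averaged 1.72 ± 0.906 FPKM at P14 and 1.86 ± 0.649 FPKM at E17.5 (SD, n = 4 each) and was not called.

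Cxcl14 rose at P14. It encodes a CXC chemokine made by many epithelia and fibroblasts whose signalling receptor is not settled. Cxcl14 (NCBI gene 57266, GRCm39 chromosome 13, 56436456 to 56444624, minus strand) had 15.9, 25.2, 31.5 and 25.0 FPKM at P14, against 11.8, 10.3, 8.84 and 8.79 FPKM at E17.5. P14 replicate 1 was the lowest of its age yet above every E17.5 library. The log2 fold change was 1.19 (SE 0.202, limma adjusted p = 0.00585), and 1.37 (SE 0.123, adjusted p = 8.19e-05) without that replicate. Its share of the summed ligand FPKM was 13.3 ± 7.88% at P14 and 2.58 ± 0.209% at E17.5 (SD, n = 4 each).

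The homeostatic ligands Ccl21a, Cxcl12 and Cxcl13 were among the highest chemokine transcripts at both ages, and none was called. Ccl21a, a ligand of Ccr7 made by lymphatic endothelium and lymphoid stroma, had 56.7, 13.2, 69.8 and 87.7 FPKM at P14, against 119, 80.7, 84.0 and 71.1 FPKM at E17.5. The ages overlapped, with P14 replicate 2 far below the rest (log2 fold change -0.89, SE 0.537, limma adjusted p = 0.255). With that library left out it was -0.31 (SE 0.221, adjusted p = 0.342). The Ccl21a coding sequence shared 400 of 402 bases with Ccl21b in the reference, and Ccl21b and Ccl21d together held 13 reads in the 8 libraries, so the division of reads among these copies is uncertain. Lymphatic endothelial markers, 7 genes, summed to 34.6 to 56.4 FPKM at P14 and 118 to 131 FPKM at E17.5. Of the 7, 5 fell, where 15.0% of all tested genes fell, and Lyve1 fell by 1.76 on the log2 scale (limma adjusted p = 0.000545).

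Cxcl12, the stromal ligand of Cxcr4, had 18.6, 26.4, 32.5 and 31.2 FPKM at P14, against 35.1, 36.7, 30.0 and 31.5 FPKM at E17.5. The 2 ages overlapped and P14 replicate 1 was lowest (log2 fold change -0.31, SE 0.18, limma adjusted p = 0.233, and -0.15, SE 0.101, adjusted p = 0.257 without it). Cxcr4 itself had nearly equal means, 10.5 ± 2.12 FPKM at P14 and 10.5 ± 2.40 FPKM at E17.5 (SD, n = 4 each), with a log2 fold change of 0.0050 (SE 0.184), which turned to -0.18 on TPM. It was the highest G protein-coupled chemokine receptor transcript at P14. At E17.5 it came after Cx3cr1, and its range overlapped that of Ccr1.

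Apart from Ccl11, Ccl21a and Cxcl13, the other 35 ligands summed to 128 ± 37.7 FPKM at P14 and 107 ± 5.42 FPKM at E17.5, while all 38 summed to 217 ± 78.6 FPKM at P14 and 383 ± 27.3 FPKM at E17.5 (SD, n = 4 each). The order of the ligands differed accordingly. At E17.5 it ran Ccl11, Ccl21a, Cxcl13, Cxcl12, Cxcl16, and only Cxcl13 and Cxcl12 among these neighbours had overlapping values. At P14 it ran Ccl21a, Cxcl12, Cxcl13, Cxcl14, Ccl19, and each neighbour in that order overlapped the next.

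Among the receptors, 3 of the 6 tested fell, where 15.0% of all tested genes fell, and none rose, where 9.72% rose, and of the 3 Ccr2 was tested through its E17.5 values alone. Cx3cr1, the fractalkine receptor carried by resident gut macrophages, fell by 1.61 on the log2 scale (SE 0.148, limma adjusted p = 0.000695). Cx3cr1 (NCBI gene 13051, GRCm39 chromosome 9, 119877749 to 119897362, minus strand) had 4.43, 7.42, 6.28 and 5.24 FPKM at P14, against 17.7, 19.8, 21.3 and 19.97 FPKM at E17.5. The libraries of each age lay close together and the ages were well apart.

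Ccr1 and Ccr2 lie on chromosome 9, within 123596276 to 123913594 of GRCm39, together with Ccr9, Cxcr6, Xcr1, Ccr1l1 and Ccr3. Ccr1, a receptor of monocytes and granulocytes, had 3.35, 3.25, 3.71 and 4.04 FPKM at P14, against 7.60, 8.11, 10.5 and 11.5 FPKM at E17.5. Each E17.5 library was above each P14 library (log2 fold change -1.17, SE 0.147, limma adjusted p = 0.00186). Ccr2, which brings blood monocytes into tissue, had 0.7998, 0.174, 0.384 and 0.752 FPKM at P14, against 3.10, 3.36, 5.75 and 6.004 FPKM at E17.5. Its P14 libraries rested on 15 to 68 reads and its E17.5 libraries on 276 to 565, and the log2 fold change was -1.84 (SE 0.232, limma adjusted p = 0.00201). The other tested gene of this stretch, Cxcr6, was not called.

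None of the 5 tested CC ligand genes Ccl2, Ccl12, Ccl5, Ccl6 and Ccl9 was called. These genes, which encode monocyte and T cell attractants, had limma adjusted p between 0.129 and 0.78. Ccl2 averaged 1.34 ± 0.191 FPKM at P14 and 1.48 ± 0.214 FPKM at E17.5, and Ccl5 averaged 1.53 ± 0.964 FPKM at P14 and 1.67 ± 0.656 FPKM at E17.5 (SD, n = 4 each). The 12 macrophage and monocyte markers summed to 216 to 443 FPKM at P14 and 455 to 493 FPKM at E17.5. Of the 11 tested, 7 fell, where 15.0% of all tested genes fell. Fcgr1, C1qb and Mrc1 were among the 7 (log2 fold changes -2.01, -1.498 and -1.41, limma adjusted p = 0.00036, 0.00104 and 0.00509). Lyz2, the highest of the 12 by its mean over all libraries, was not called (95.7 ± 38.2 FPKM at P14, 86.5 ± 10.5 FPKM at E17.5, SD, n = 4 each). Dendritic cell markers, 9 genes, summed to 12.8 to 17.8 FPKM at P14 and 32.0 to 34.3 FPKM at E17.5. Of the 6 tested, 5 fell, where 15.0% of all tested genes fell. The part of these cells in the lower receptor values was not tested.

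The atypical receptors moved in different directions. Ackr2, which takes up inflammatory CC chemokines and is known from lymphatic endothelium, had 1.08, 0.830, 1.01 and 1.40 FPKM at P14, against 3.86, 3.38, 4.22 and 5.37 FPKM at E17.5. No P14 value reached the E17.5 range (log2 fold change -1.32, SE 0.148, limma adjusted p = 0.00128). Ackr3, a scavenger of Cxcl12, had 10.5, 22.5, 17.4 and 23.7 FPKM at P14, against 26.1, 29.1, 27.1 and 28.5 FPKM at E17.5. The ages did not overlap, but the spread at P14 left the gene uncalled with all libraries (log2 fold change -0.62, SE 0.231, limma adjusted p = 0.0872), and it was called without P14 replicate 1 (-0.38, SE 0.108, adjusted p = 0.0181). Without that library both the size of the estimate and its SE were smaller.

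Ackr4, which removes Ccl19, Ccl21 and Ccl25, had 2.61, 12.3, 9.67 and 11.2 FPKM at P14, against 3.72, 2.07, 2.63 and 2.90 FPKM at E17.5. P14 replicates 2 to 4 were well above the fetal range and P14 replicate 1 lay inside it. With all libraries the gene was not called (log2 fold change 1.23, SE 0.403, limma adjusted p = 0.058), and without P14 replicate 1 it rose by 1.67 (SE 0.149, adjusted p = 7.83e-05). Fibroblast markers summed to 961 FPKM in P14 replicate 1, against 2614 to 2690 FPKM in P14 replicates 2 to 4 and 2377 to 2631 FPKM at E17.5. Ackr1, the chemokine receptor of erythrocytes and venules, was listed at 0 in all 8 libraries, although erythroid markers summed to 341 to 570 FPKM at P14 and 1650 to 2406 FPKM at E17.5.

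A group of ligands was highest in P14 replicate 1, the library richest in epithelial transcripts. These genes and the lymphoid group after them were singled out after their values were seen. Ccl25, an attractant of Ccr9-bearing lymphocytes that is made by the small intestinal epithelium, had 27.0, 1.55, 7.07 and 3.42 FPKM at P14, against 0.628, 0.431, 0.721 and 0.638 FPKM at E17.5. All P14 libraries were above all E17.5 libraries, and among the P14 libraries Ccl25 (NCBI gene 20300, GRCm39 chromosome 8, 4375207 to 4410020, plus strand) kept the order of the epithelial sum, 5342, 133, 747 and 264 FPKM. Its log2 fold change was 2.15 (SE 0.648, limma adjusted p = 0.0449), and 1.49 (SE 0.342, adjusted p = 0.00911) without P14 replicate 1. The call was lost without any single E17.5 library (adjusted p 0.0938 to 0.104), without P14 replicate 3 (0.102) and without P14 replicate 4 (0.0596). It was also lost when every gene above 0 was tested (limma adjusted p = 0.0917).

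Cx3cl1, the membrane-bound ligand of Cx3cr1, had 45.1, 1.08, 4.11 and 1.28 FPKM at P14, against 1.08, 1.06, 0.772 and 0.910 FPKM at E17.5. P14 replicate 1 held 20.9 times the mean of the other P14 libraries, and the gene was not called with that library (log2 fold change 1.57, SE 0.903, limma adjusted p = 0.233) or without it (0.57, adjusted p = 0.14). Ccl20, a ligand of Ccr6 made by the epithelium over lymphoid follicles, was below the filter, with 62, 0, 42 and 2 reads in the P14 libraries and 0 reads in each E17.5 library, where up to 3 reads a library cannot be told from 0. Ccl28, a mucosal ligand of Ccr10, and Ccl6, a mouse ligand of Ccr1, were likewise highest in P14 replicate 1, at 4.86 and 3.77 times the mean of the other P14 libraries. In the opposite sense, Ackr4, Ackr3, Cxcl14, Cxcl12 and Ccl11 were lower in that library, at 0.236, 0.498, 0.585, 0.619 and 0.623 times that mean. The part of the epithelium in these values was not tested.

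**Figure D3:**
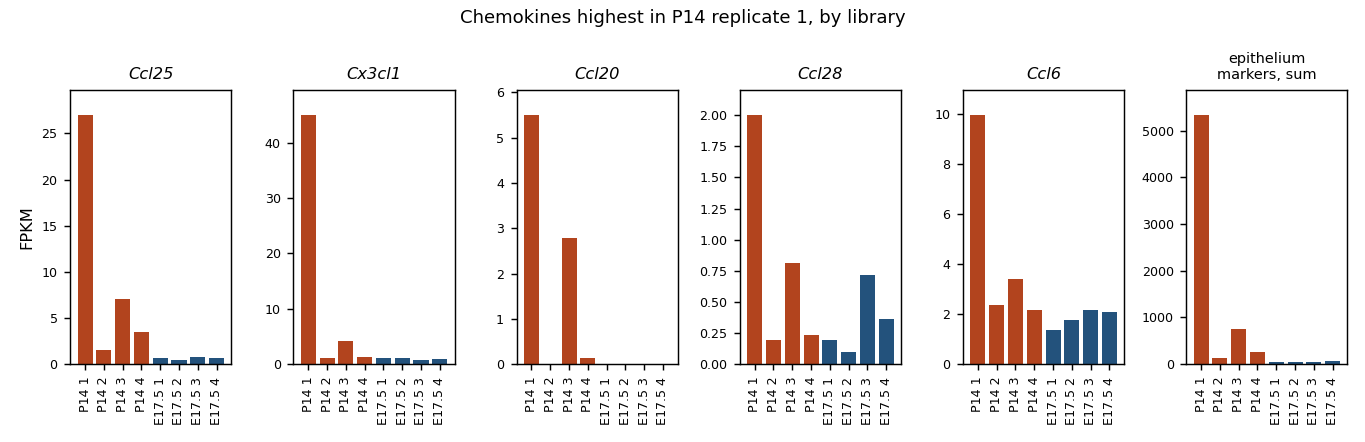
FPKM of Ccl25, Cx3cl1, Ccl20, Ccl28 and Ccl6 and the summed FPKM of 16 epithelial markers (vertical axes, each panel with its own linear scale), 1 bar per library, P14 in red and E17.5 in blue. P14 replicate 1 has the tallest bar in each panel, P14 replicate 3 the next among the P14 libraries, and Ccl20 has no bar at E17.5.

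Cxcl13 and Ccl19, ligand genes of organised lymphoid tissue, varied widely between the P14 libraries. Genes listed for lymphoid tissue stroma, 8 in all, summed to 169, 146, 163 and 176 FPKM in P14 replicates 1 to 4, against 116 to 139 FPKM at E17.5. In that list Ltbr was the highest at P14 and nearly level between the P14 libraries. It averaged 84.5 ± 5.50 FPKM at P14 and 44.8 ± 7.59 FPKM at E17.5 (SD, n = 4 each). Ltbr rose by 0.91 on the log2 scale (limma adjusted p = 0.00375), the only called gene of the 6 tested. Of all tested genes 9.72% rose and 15.0% fell. Ltb had 28.0, 3.41, 16.5 and 26.2 FPKM in P14 replicates 1 to 4, and Bst1 had 19.4, 0.822, 7.70 and 3.13 FPKM. Tnfsf11, Cr2 and Lta were likewise lowest of their age in P14 replicate 2, at 0.147, 0.0296 and 0.303 FPKM. Madcam1 and Tnfrsf11b were lowest in P14 replicate 1 instead, and Ltbr in P14 replicate 4. Cxcl13, which gathers B cells through Cxcr5, had 44.2, 0.566, 20.5 and 38.1 FPKM at P14, against 43.9, 38.6, 36.6 and 43.0 FPKM at E17.5. The fetal libraries were alike, whereas P14 replicate 2 held 1.65% of the mean of the other P14 libraries (log2 fold change -1.41, SE 0.979, limma adjusted p = 0.32). With P14 replicate 2 left out it was -0.30 (SE 0.254, adjusted p = 0.414). Ccl19, a Ccr7 ligand of lymphoid stroma, had 17.2, 0, 6.59 and 33.6 FPKM at P14, against 3.22, 1.02, 5.39 and 3.19 FPKM at E17.5. It was 0 in P14 replicate 2 and above all fetal values in the other P14 libraries.

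In the lymphocyte receptor genes P14 replicate 2 was again the lowest P14 library. Cxcr5, the B cell receptor for Cxcl13, had 4.24, 0.104, 2.49 and 4.06 FPKM at P14, against 1.15, 0.764, 0.900 and 0.990 FPKM at E17.5. Ccr7, which brings T cells and dendritic cells into lymphoid tissue, passed 1 FPKM in 3 libraries only and was not tested, with 5.13, 0.278, 4.08 and 5.87 FPKM at P14, against 0.343, 0.292, 0.187 and 0.356 FPKM at E17.5. Ccr6, the Ccl20 receptor of B cells and some T and innate lymphoid cells, had 2.82, 0.0259, 1.90 and 2.18 FPKM at P14, against 0.614, 0.461, 0.522 and 0.935 FPKM at E17.5. In all 3 receptor genes P14 replicates 1, 3 and 4 lay above the fetal range, and P14 replicate 2 lay within it or under it.

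With all libraries neither Ccl19 nor Cxcr5 was called (limma adjusted p = 0.453 and 0.291). Without P14 replicate 2, Ccl19 rose by 2.12 (SE 0.568, adjusted p = 0.0397) and Cxcr5 by 1.22 (SE 0.174, adjusted p = 0.00622), which took the number that rose to 4 of 26, where 8.37% of all tested genes rose, while 6 fell, where 12.9% fell. When every gene above 0 was tested with all libraries, neither Ccr7 nor Ccr6 was called (limma adjusted p = 0.0903 and 0.399). Leaving P14 replicate 2 out of that fit was chosen after its low values were seen. Ccr7 then rose by 2.21 (SE 0.138, adjusted p = 0.00234) and Ccr6 by 1.01 (SE 0.154, adjusted p = 0.0172). Without P14 replicate 2, 5 of the 57 chemokine and receptor genes above 0 rose, where 3.30% of all 31574 such genes rose. In the same fit 7 fell, where 3.87% fell, and Ccl19 was not called (adjusted p = 0.0811). The 12 B and plasma cell markers summed to 127, 18.7, 76.5 and 140 FPKM in P14 replicates 1 to 4. With all libraries 3 of the 4 tested rose, where 9.72% of all tested genes rose. They included Cd79a, part of the B cell receptor, by 3.72 and Jchain, the joining chain of secreted antibody, by 3.30 on the log2 scale (limma adjusted p = 0.0202 and 0.000624). Cd79a and Jchain passed the filter through their P14 values alone, so their direction was tied to their being tested. T, NK and innate lymphoid markers summed to 102, 8.94, 33.6 and 47.3 FPKM at P14, against 26.0 to 31.7 FPKM at E17.5. The part of these lymphocytes in the chemokine and receptor values was not tested.

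**Figure D4:**
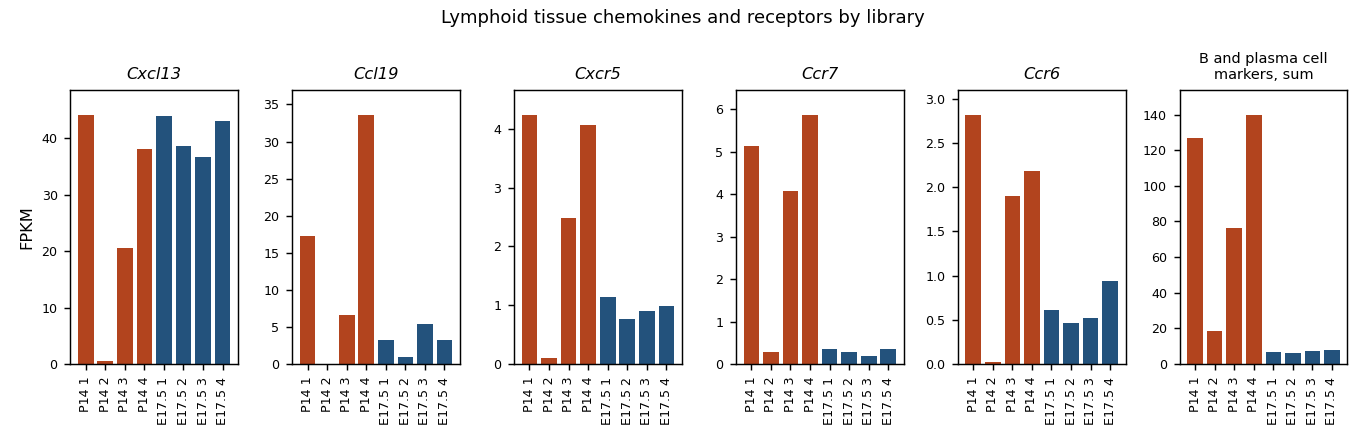
FPKM of Cxcl13, Ccl19, Cxcr5, Ccr7 and Ccr6 and the summed FPKM of 12 B and plasma cell markers (vertical axes, each panel with its own linear scale), 1 bar per library, P14 in red and E17.5 in blue. P14 replicate 2 is the lowest P14 bar in all panels, and Cxcl13 is the gene of the 5 whose fetal bars come near the tallest P14 bar.

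Of the 34 genes below the filter, 3 (Ackr1, Ccl1 and Ccl26) were at 0 throughout and 31 held values. When every gene above 0 was tested with all libraries, 1 of the 57 genes rose, where 3.19% of all such genes rose, and 8 fell, where 4.98% fell. Those that fell included Cxcl5 and Cxcl2, which encode neutrophil attractants and were the only genes below the filter to be called (limma adjusted p = 0.0221 and 0.0248). Without P14 replicate 2, Cxcl5 was called and Cxcl2 was not (limma adjusted p = 0.0488 and 0.0532). Cxcl5 had 3 to 10 reads per P14 library and 22 to 48 per E17.5 library. Cxcl2 had 1 read in all P14 libraries and 35 in all E17.5 libraries. Their receptor gene Cxcr2, of neutrophils, held 5 reads at P14 and 62 at E17.5 and was not called (limma adjusted p = 0.05). The same fit without P14 replicate 1 was chosen after the data were seen. It called 4 genes that rose, where 11.3% of all such genes rose, and 12 that fell, where 10.7% fell. Cxcr2 and Ccr3 were then among those that fell (limma adjusted p = 0.017 and 0.0294). Cxcl5 and Cxcl2 lie in 1 cluster with Cxcl3, Cxcl15 and Cxcl1 on GRCm39 chromosome 5, 90907157 to 91053797, in which no gene passed the filter. Of 4 tested neutrophil markers, Camp, an antimicrobial peptide gene, rose, and S100a9 and Csf3r fell, Csf3r having been tested through its E17.5 values alone. Among all genes tested with the filter 9.72% rose and 15.0% fell.

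The upstream windows of 3 genes of this cluster held a kappa B motif, the binding sequence of NF-kappa B. RefSeq start sites on GRCm38.p6 were matched for 47 of the 60 genes, which gave 54 windows of the 250 bases before a start. The letters GGGA, any base and TTTCC in a row, on either strand, occurred in 4 of these windows (Cxcl1, Cxcl2, Cxcl3 and Ccr3), 7.41%, and in 0.356% of all 32851 windows. The other 3 motifs searched, on both strands, were the PU.1 core GAGGAAG (14.8% of the 54 windows, 10.6% of all), the STAT6 motif TTC, any 4 bases and GAA (1.85% and 5.85%) and the TATA box TATAAA (27.8% and 12.4%). Cxcl5 was not among the genes matched. A match is a description of the sequence only. The 50 bases around the match, with the motif in capitals, are shown on the plus strand at chr5:90903782-90903831 for Cxcl2, chr5:90891154-90891203 for Cxcl1 and chr5:90786008-90786057 for Cxcl3, because the 3 windows share both the motif and its neighbouring bases in part.
Cxcl2: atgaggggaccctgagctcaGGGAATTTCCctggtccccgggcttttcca
Cxcl1: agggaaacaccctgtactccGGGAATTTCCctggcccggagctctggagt
Cxcl3: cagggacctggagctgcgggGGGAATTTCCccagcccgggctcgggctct

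Genes downstream of chemokine receptors are set beside the 9.72% of all tested genes that rose and the 15.0% that fell. Of 14 tested G protein and effector genes (median log2 fold change -0.14), 3 fell and none rose: Pik3cg, Plcb2 and Gng11 had log2 fold changes of -0.80, -0.64 and -0.53. Gnai2, the highest of them, was not called (250.4 ± 21.2 FPKM at P14, 270.3 ± 15.6 FPKM at E17.5, SD, n = 4 each). Of 10 tested genes of receptor desensitisation (median -0.18), Grk5, Rgs19 and Arrb2 fell. Rgs1, a brake on Gαi signalling that is abundant in lymphocytes, rose by 1.69 (22.5 ± 10.8 FPKM at P14, 5.57 ± 1.96 FPKM at E17.5, SD, n = 4 each, limma adjusted p = 0.0312). Rgs1 had 6.65, 31.2, 25.8 and 26.3 FPKM in P14 replicates 1 to 4. It was highest in replicate 2, the P14 library with the least B and plasma cell RNA. The part of any cell type in the Rgs1 values was not tested. Of 13 tested genes of migration signalling (median -0.27), Prex1 and Tiam1, both activators of Rac, fell and none rose, Tiam1 being tested through its E17.5 values alone. Without P14 replicate 1, where 22.6% of all tested genes rose and 26.9% fell, 1 rose and 5 fell in the G protein list, 1 rose and 3 fell in the desensitisation list, and 4 fell in the migration list.

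Genes that hold leukocytes or shape chemokine gradients mostly fell where they were called. The shares of all tested genes beside these counts were again 9.72% that rose and 15.0% that fell, or 22.6% and 26.9% without P14 replicate 1. Of 12 tested adhesion genes (median log2 fold change -0.57), 5 fell and none rose, led by the integrin gene Itgam (log2 fold change -1.22, P14 1.79 ± 0.409 FPKM, E17.5 5.47 ± 0.638 FPKM), Icam2 (-1.22) and Vcam1 (-0.97). Of 12 tested genes for chemokine cleavage and presentation (median -0.38), 5 fell and 2 rose. Mmp9 and Mmp2, gelatinases that trim several chemokines, fell by 2.14 and 1.58 on the log2 scale (limma adjusted p = 0.00379 and 0.000964). Adam10 and Adam17, the sheddases of Cx3cl1 and Cxcl16, fell by 0.72 and 0.61 (limma adjusted p = 0.00447 and 0.00744). Sdc4, a heparan sulfate proteoglycan gene, rose by 1.34 (limma adjusted p = 0.019). Of 8 tested relatives that the names leave out (median -0.74), 4 fell, led by Gpr182, an endothelial scavenger of chemokines (log2 fold change -1.41, P14 2.19 ± 0.600 FPKM, E17.5 7.42 ± 0.880 FPKM), and Mif, the highest of them, fell by 0.83. Without P14 replicate 1 the adhesion list had 1 that rose and 7 that fell, the cleavage and presentation list 3 and 6, and the relatives 0 and 5. Blood endothelial markers, 10 genes, summed to 275 to 628 FPKM at P14 and 800 to 879 FPKM at E17.5, and their part in the adhesion and Gpr182 values was not tested.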

How the data were processed

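RNA was sequenced from 8 libraries, and groups and replicate numbers come from the sample labels. The labels of the fetal libraries read E17, and the age E17.5 used here is that of the protocol. The deposited table gives FPKM per gene and library, made by the authors, and the gene length in bases on which it rests (another deposited column). Per the submitters' processing notes, the tools were CASAVA, fastp, HISAT2, featureCounts and DESeq2 1.20.0 and the build was GRCm39, with no roles given. The step that made the FPKM and the use of strand are not given in the sources used here, so overlapping or near-identical genes are uncertain. FPKM multiplied by length was a whole multiple of its smallest nonzero value in that library for 100% of values (tolerance 1e-06). That smallest value was taken as 1 read, an assumption on which all read counts here rest. The ratio of the authors' effective library size to assigned reads was 0.78 for P14 replicate 1, and elsewhere 1.02 to 1.06. A count of 0 allows up to 3 reads per library, counting error only.

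Values were analysed as log2(FPKM + 1), which shrinks the changes of low genes, with limma 3.58.1 under R 4.3.3 (trend and robust moderation through statmod 1.5.0, two-sided), over the 14044 genes that reached 1 FPKM in 4 or more libraries; the procedure was tested on simulated data. Adjusted p-values are Benjamini-Hochberg over all tested genes, called under 0.05. 1 locus that matches the names is not reported here, and it stayed in the fit over all genes. Genes and lists were chosen with earlier results of these data known. Library values are given for each called gene and for the 5 highest at either age, and list genes are mostly the called ones with the largest change, at most 3 per list, and the highest. Arrb2 and the genes of the lymphoid tissue stroma list other than Ltbr were named outside that rule. The lymphoid, epithelial and low-read genes (Epx among the markers) were named after their values were seen, as were Adam10, Adam17, Camp, S100a9 and Csf3r. Sequences come from RefSeq windows on GRCm38.p6 and GENCODE M21 on GRCm38, and no coordinate was converted between builds. Alternatives comprised the pseudocount, the filter, TPM, other scalings, plain moderation, limma-voom on the recovered reads, a replicate block and leaving out each library.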

Additional observations from a re-analysis of the deposited data

Results flagged for a closer look

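Ackr4 had 2.61 FPKM in P14 replicate 1, far from the 9.67 to 12.3 FPKM of the other P14 libraries by Dixon's test. This was the only such value among 52 groups of 4 libraries examined (26 genes at 2 ages), where chance alone marks about 1 in 20.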

How the results depend on the processing

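The calls of Ccl11, Ccl24, Cxcl14, Cx3cr1, Ccr1, Ccr2 and Ackr2 held in each of the 21 alternatives run. The number of genes that rose, 2, became 1 without a filter on low values, 1 with limma-voom on recovered reads, and 1 to 4 when single libraries were left out. Without a filter on low values neither Ccl25 nor Cxcl16 was called (limma adjusted p = 0.0917 and 0.0852), and Cxcl5 and Cxcl2 joined those that fell. Ccl25 was also lost with limma-voom. The number that fell, 7, lay between 6 and 8 in all alternatives but the next. Testing every gene above 0 without P14 replicate 1 gave 4 that rose and 12 that fell, and without P14 replicate 2 gave 5 that rose; both settings were chosen after seeing the data. The replicate numbers did not pair the samples (r of same-numbered deviations -0.0641 to 0.00947): with a replicate block 1 gene rose and 6 fell, Cxcl16 and Ccl25 being lost (adjusted p = 0.0984 and 0.0655). Among all tested genes 1365 rose and 2108 fell; 899 and 2678 did so on TPM, 695 and 1049 with the replicate block, 3176 and 3782 without P14 replicate 1, and 617 to 3176 and 1118 to 3782 when single libraries were left out. TPM moved the median of all genes to -0.18 on the log2 scale. Cxcr4 changed sign on TPM (-0.18), with quantile normalization (-0.0264), and without E17.5 replicate 1 (-0.0164), E17.5 replicate 2 (-0.11) or P14 replicate 4 (-0.115), the range over left-out libraries being -0.115 to 0.13. Cxcr6 changed sign without E17.5 replicate 4 (0.0332) or P14 replicate 2 (0.0733; range -0.305 to 0.0733), and Ccl5 without E17.5 replicate 2 (0.0284), P14 replicate 2 (0.00444) or P14 replicate 3 (0.0671; range -0.315 to 0.0671). None of these 3 was called in any setting, and the causes were not tested. Genes with few reads, such as Ccr3, limit what this depth can show.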

Other observations

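Cxcl11, a ligand of Cxcr3 that is listed as a transcribed pseudogene and so lies outside the names examined, held 6, 0, 0 and 2 reads in the P14 libraries and 1, 0, 1 and 4 in the E17.5 libraries. The pseudogene Ccl19-ps2 held 26 reads in P14 replicate 4 and 18 in E17.5 replicate 3, and at most 3 in any other library.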
